A study of Mus musculus with 139 samples.

Results

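The genes described here are 10 core components of the circadian clock and its transcriptional output: Dbp, Per1, Per2, Per3, Nr1d1, Nr1d2, Ciart, Arntl, Npas2 and Tef. They were taken by symbol from the deposited expression table, using features paired with a single gene symbol and, where a gene had several, the feature of highest mean. Of the 10 genes, 9 were measured in this way, among 22180 genes in all. The feature for Per2 also carries a second symbol, 9830107B12Rik, so Per2 was not analysed here. Tef had 2 features, of which the one with a mean log2 level of 6.55 was used and the one with a mean of 4.30 was set aside.

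Lung tissue came from male C57BL/J6 mice, bought at 7 weeks of age, that had received a single 50 µL dose by pharyngeal aspiration under isoflurane. Every mouse received dispersion medium (DM), a phosphate-buffered saline with glucose, mouse serum albumin and a phospholipid, either alone or carrying 1, 10, 40 or 80 µg of multiwalled carbon nanotubes (MWCNT) or 120 µg of crocidolite asbestos. Lungs were profiled 1, 6 and 12 months later on 139 arrays in 18 groups, with 1 mouse hybridised to 2 arrays. The groups held 8 mice each, except crocidolite at 1 month (5), crocidolite at 12 months (7) and 1 µg MWCNT at 12 months (6). Mice within a group are numbered below in the order of deposition, which gives them a name and no other meaning. The mice were kept under daytime lighting at fixed hours. The labels used here do not give the hour at which lungs were collected.

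The mammalian clock is a loop of transcription factors that runs in almost every cell, lung cells included. Arntl (also called Bmal1) and its partners Clock or Npas2 bind E-box sequences and switch on the Per and Cry repressors, the nuclear receptors Nr1d1 and Nr1d2 (REV-ERB alpha and beta), the repressor Ciart and the output factor Dbp. The Per and Cry proteins then inhibit their own activators, and Nr1d1 and Nr1d2 repress Arntl and Npas2 through ROR elements, so the activators and their targets peak at opposite times of day. Dbp and Tef are related bZIP factors that act on D-box sequences, such as those in Per promoters. Per1 is also induced directly by glucocorticoids. A clock gene's level in a lung therefore depends on the hour of collection.

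Elements through which the loop is known to act were looked for in the promoters, since many of these genes varied together between mice, as described below. RefSeq promoters (mouse build GRCm38.p6, 250 bases before the start to 50 after) were searched on each strand for the E-box CACGTG, its variant CACGTT, the D-box forms TTATGTAA and TTATGCAA, and the ROR element core TAGGTCA. None of these motifs contains another. All 9 measured genes had a promoter in the table. Those shown were taken from the 3 genes with the highest mean correlation with the other clock genes (Per3, Tef and Nr1d1) and the 3 with the lowest (Ciart, Arntl and Npas2), leaving out Npas2, which had no match. Where one of these had several records, the one with the most matches, or the first of equals, is shown. The sequences below run 5′ to 3′ along the gene's strand, with matched motifs in capitals. The first 4 are the 250 bases before the start, and the last is a stretch of 30 bases just after a start of Arntl.
Per3, chr4:151044666-151044915, - strand: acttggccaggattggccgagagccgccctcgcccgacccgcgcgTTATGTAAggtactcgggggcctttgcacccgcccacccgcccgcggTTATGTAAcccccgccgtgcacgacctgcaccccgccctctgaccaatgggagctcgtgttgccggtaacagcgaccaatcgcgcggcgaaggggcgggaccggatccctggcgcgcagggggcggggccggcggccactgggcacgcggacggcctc
Tef, chr15:81802423-81802672, + strand: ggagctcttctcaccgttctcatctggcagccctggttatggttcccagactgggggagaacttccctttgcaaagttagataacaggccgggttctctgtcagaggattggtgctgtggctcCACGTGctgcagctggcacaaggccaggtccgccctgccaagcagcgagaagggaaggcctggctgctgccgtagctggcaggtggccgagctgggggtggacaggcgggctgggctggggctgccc
Nr1d1, chr11:98775378-98775627, - strand: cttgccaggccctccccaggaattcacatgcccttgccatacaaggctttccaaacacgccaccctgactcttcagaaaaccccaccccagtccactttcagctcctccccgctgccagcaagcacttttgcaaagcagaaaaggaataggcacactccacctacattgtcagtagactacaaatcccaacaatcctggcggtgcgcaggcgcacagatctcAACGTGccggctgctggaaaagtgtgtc
Ciart, chr3:95882229-95882478, - strand: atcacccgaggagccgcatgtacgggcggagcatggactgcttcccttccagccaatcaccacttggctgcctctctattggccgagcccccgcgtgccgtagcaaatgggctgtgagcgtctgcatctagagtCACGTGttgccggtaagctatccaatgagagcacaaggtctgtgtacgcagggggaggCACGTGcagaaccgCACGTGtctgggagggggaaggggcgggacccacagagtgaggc
Arntl, chr7:113207530-113207559, + strand: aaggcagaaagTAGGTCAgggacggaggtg
Per3 carried the D-box TTATGTAA in 2 places, at positions -205 and -158 from the start, and 1.66% of the 32851 promoters of the same length held either D-box form. Ciart carried CACGTG in 3 places, at -116, -58 and -44, and Tef carried it at -127 in the record shown and at -138 in a second record, whereas 7.15% of promoters held it. Nr1d1 had the E-box variant at -28, read as AACGTG on its own strand, which 4.68% of promoters held. Per1, which is not shown, had both CACGTG, at -166, and the D-box form TTATGCAA, at -24. In Arntl the ROR core TAGGTCA lay at position 31 after one of its starts, and 2.61% of promoters held that core. No promoter record of Dbp, Nr1d2 or Npas2 held any of the motifs in this window. These are matches of letters in a fixed window and were not tested as binding sites.

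The arrays read as lung. The mean log2 level of 9 epithelial markers, such as the surfactant gene Sftpc, ranged from 9.75 to 10.73 per mouse, and that of 7 endothelial markers from 8.92 to 10.07. Markers of neighbouring tissue varied more. The mean of 11 skeletal muscle markers ran from 2.97 to 7.41, with at least 1 mouse above 5 in 9 of the 18 groups, that of squamous epithelium markers from 2.40 to 7.62 and that of adipose tissue markers from 3.79 to 8.26. The part of such tissue in the results below was not tested. The word "replacement" stands in the titles of 38 arrays, with no meaning given. A term for it was past the test for none of the 9 clock genes and for 8.97% of all genes, by limma with Benjamini-Hochberg adjustment. Without adjustment 1 of the 9 was under 0.05, Per3 (difference -0.19 ± 0.08, adjusted p 0.141). The median correlation of an array with the others ran from 0.955 to 0.986.

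Between mice of the same group, Dbp was among the most variable genes of the lung. Its log2 level ran from 4.85 in mouse 3 of the 10 µg, 6 month group to 8.10 in mouse 1 of the 80 µg, 1 month group. Its residual SD, the spread between mice around their group means, was 0.67, which lies at the 98.3 percentile of all genes, against a median gene's 0.30. Per1 followed with a residual SD of 0.54 (95.6 percentile), Nr1d1 with 0.44 (89.2), Npas2 with 0.41 (85.9) and Per3 with 0.39 (82.7). Nr1d2 at 0.36 (76.5), Tef at 0.34 (68.9), Ciart at 0.33 (63.6) and Arntl at 0.31 (56.1) were closer to the median gene. At 40 µg and 6 months, for instance, the 8 mice had Dbp levels from 5.09 to 7.58 with a median of 6.87.

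One mouse was hybridised on 2 arrays, 1 with the word "replacement" in its title and 1 without. This gives a view of the technical part of the spread, together with any difference that goes with that word. The Dbp levels on its 2 arrays were 6.16 and 5.99, a difference of 0.17, while the median difference between other pairs of mice of its group was 0.86 over 21 pairs. For Arntl the difference was 0.10 against 0.33, for Ciart -0.01 against 0.33, and for Npas2 0.39 against 0.51. Per1 (-0.28 against 0.31) and Tef (-0.26 against 0.24) differed between the 2 arrays about as much as between mice. This is a single mouse, so it bounds no error for the others.

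The clock genes did not vary independently. Mice with high Dbp also had high Nr1d1, Nr1d2, Per3 and Tef and low Arntl and Npas2. This was measured as the correlation of deviations from the group mean over all mice, which leaves out every difference between treatments and times. Of 36 pairs of genes, 30 passed a two-sided permutation test that shuffled mice within groups (adjusted p under 0.05, Benjamini-Hochberg over the 36 pairs), 19 of them positive and 11 negative. The count was also 30 with Spearman's rho. None of the 30 changed sign without the 2 mice farthest from the median of the first gene, and r moved by at most 0.08.

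Dbp, a D-box activator and one of the most strongly rhythmic genes in many tissues, followed the REV-ERB genes most closely. Its r was 0.87 with Nr1d1 (rho 0.86) and 0.82 with Nr1d2 (rho 0.80). It was 0.77 with Per3 (rho 0.76), a period repressor, and 0.71 with Tef (rho 0.70), its bZIP relative. Against the activators the sign turned, with r of -0.71 for Arntl (rho -0.71) and -0.72 for Npas2 (rho -0.69). Each of these had an adjusted p of 1.71e-05, and the unadjusted 1e-05 is the smallest that the permutations can give. Without the 2 farthest mice the same values were 0.88, 0.81, 0.76, 0.70, -0.69 and -0.70.

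**Figure D1:**
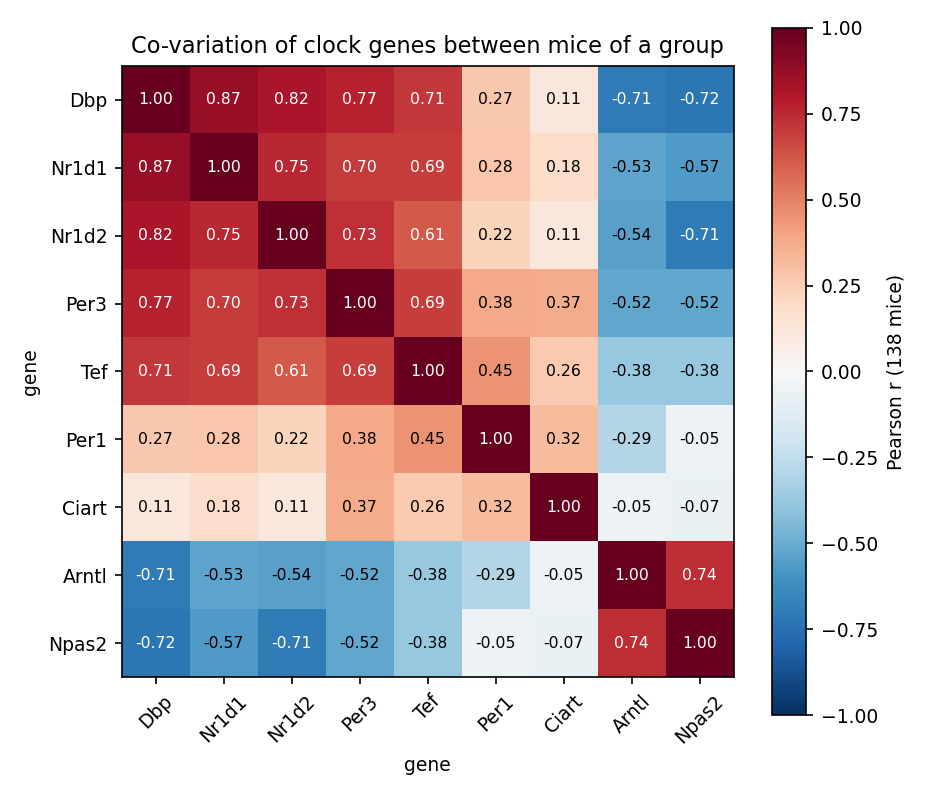
Pearson r of deviations from the group mean over all mice for each pair of the 9 clock genes, on a color scale from -1 to 1. Dbp, Nr1d1, Nr1d2, Per3 and Tef form a block of r from 0.61 to 0.87, Arntl and Npas2 are positively related to each other at 0.74 and negatively to that block, while Per1 with Npas2 and Ciart with Arntl are both at -0.05.

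Arntl and Npas2, which can pair with each other as the activator of E-box genes, varied in the same direction with r of 0.74 (rho 0.70). Nr1d1 and Nr1d2, which repress both, had r of -0.53 and -0.54 with Arntl and of -0.57 and -0.71 with Npas2. Per3 had -0.52 with each activator, and Tef had -0.38 with each. All 8 of these negative values passed the test.

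Set against the whole array, Dbp had its nearest and most opposite genes among the clock genes. Among 22179 other genes, the 4 with the highest r to Dbp were Nr1d1, Nr1d2, Per3 and Tef, and the 2 with the lowest were Npas2 and Arntl. Only 10 genes (0.0451%) had an r with Dbp of 0.5 or more in size, and 6 of them were clock genes of the 8 others measured. For Arntl the highest was Npas2, and the 3 lowest were Dbp, Nr1d2 and Nr1d1. For Npas2 the highest was Arntl. Tef was less exclusive: Dbp, Per3 and Nr1d1 ranked 1, 3 and 4 with it, but Nr1d2 ranked 29, and Arntl and Npas2 ranked 317 and 320 from the lowest. Neither Per1 nor Ciart had any of the 8 other clock genes at 0.5 or beyond, although 58 genes reached that size with Per1 and 226 with Ciart.

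The relation of Dbp to Nr1d1 was positive in all 17 groups of 6 or more mice, with r from 0.59 to 0.96. That of Dbp to Arntl was negative in all 17, from -0.97 to -0.48, and that of Dbp to Npas2 in 16 of 17. The 30 pairs that passed kept their sign in the 100 mice whose arrays lack the word "replacement", in 33 mice whose arrays carry it (groups with at least 2 such mice), and in the 45, 48 and 45 mice of the 1, 6 and 12 month groups. Among those strata, r of Dbp with Arntl was -0.72 at 1 month, -0.70 at 6 months and -0.76 at 12 months. Some other pairs were looser at 12 months. At 1, 6 and 12 months r was 0.87, 0.82 and 0.39 for Per3 with Nr1d1, and 0.83, 0.82 and 0.45 for Nr1d1 with Nr1d2. For Nr1d1 with Npas2 it was -0.64, -0.68 and -0.38, whereas for Nr1d1 with Arntl it was -0.54, -0.51 and -0.62. In those 33 mice alone, 19 pairs passed.

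**Figure D2:**
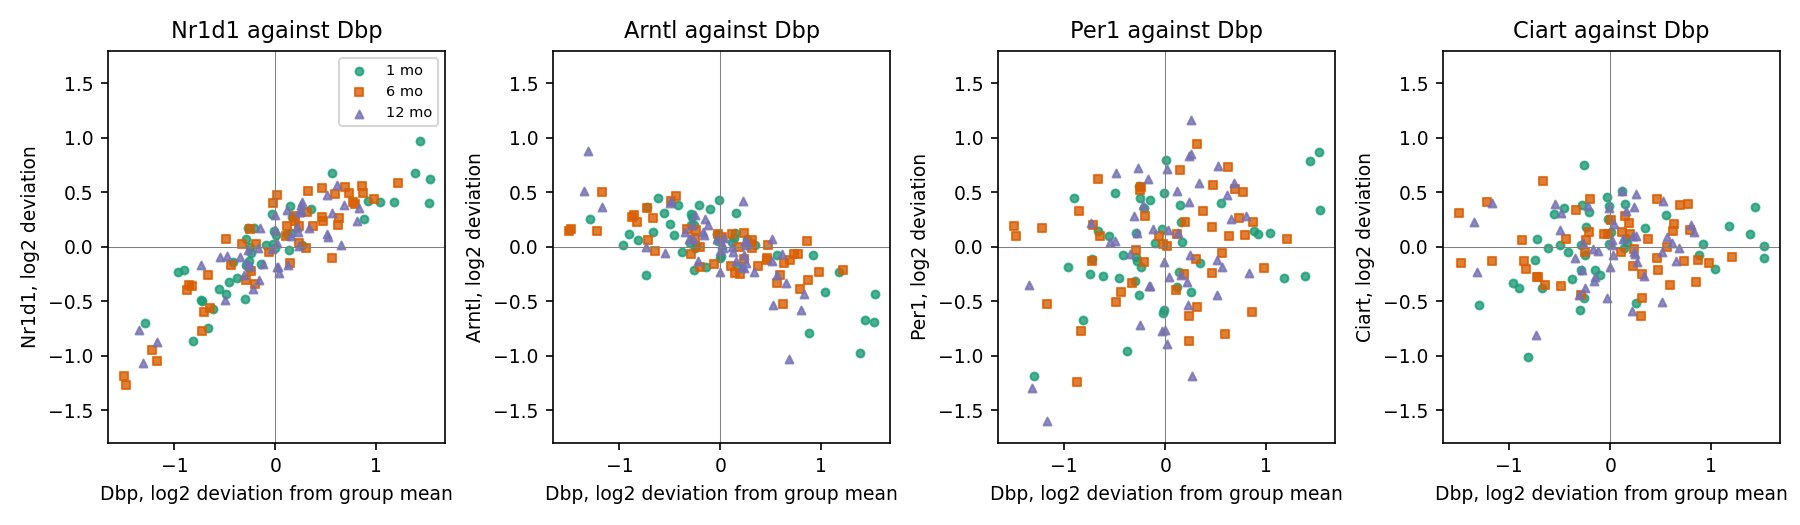
Log2 deviation of Nr1d1, Arntl, Per1 and Ciart from the group mean (vertical) against that of Dbp (horizontal), with 1 point for each mouse, by month after exposure. The points of Nr1d1 rise with Dbp (r 0.87), those of Arntl fall (r -0.71), and those of Per1 (r 0.27) and Ciart (r 0.11) are widely scattered.

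Single mice show the pattern across the genes at once. Mouse 5 of the DM, 1 month group had Dbp at 7.49, Nr1d1 at 9.20, Nr1d2 at 7.66 and Per3 at 6.78, with Arntl at 7.42 and Npas2 at 5.85. Its 7 group mates had Dbp between 5.39 and 6.19, Nr1d1 between 7.48 and 8.30, and Npas2 between 7.13 and 7.73. It was therefore above all of them for the REV-ERB and D-box genes and below all of them for Npas2. The opposite case was mouse 3 of the 10 µg, 6 month group, with the lowest Dbp (4.85), Nr1d1 (7.03) and Nr1d2 (5.86) of all mice, beside Arntl at 8.13 and Npas2 at 7.63, which were 0.16 and 0.64 above their group means. Its array is among the 10 least correlated with the rest (0.967).

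Some other genes of the clock outside the 10 moved with the same axis. Of 17 measured in a list of further clock genes, 6 had an r with Dbp of 0.3 or more in size, which 2.5% of all genes reached. Hlf, the third bZIP factor of the Dbp and Tef family, had 0.53 and Cry2, a repressor, 0.48. The E-box repressors Bhlhe41 and Bhlhe40 had 0.43 and 0.35. Nfil3, which represses through the D-box, had -0.39 and Cry1 -0.35, and these 2 followed Arntl at 0.43 and 0.45. Clock, the partner of Arntl, had r of -0.27 with Dbp and 0.43 with Arntl. Others of the 17 had little relation to Dbp, such as Rora (0.06), Arntl2 (-0.06) and Fbxl21 (0.08). Among 19 measured output genes, 8 reached 0.3 in size with Dbp, against 1 of 14 glucocorticoid responsive genes and 1 of 15 immediate early genes. The output genes included Herpud1 and Tspan4 (both 0.46), Klf9 (0.38) and Usp2 (0.36), and Lonrf3 was at -0.31. Klf9 is also the glucocorticoid responsive gene of that count.

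For the genes most and least like a clock gene, here and below, the clock genes themselves, predicted or unnamed genes and olfactory receptors were passed over. Outside these lists, the genes most like Dbp over all mice were Zfp346 (r 0.53), the glycolytic regulator Pfkfb3 (0.51), Tns2 (0.51) and the heme synthesis enzyme Alas1 (0.50), after Hlf and before Cry2. The least like were Spon2 (-0.48), Adm (-0.42), which encodes the vasodilator peptide adrenomedullin, and Rasl11a (-0.42). These 3 were among the 6 most like Arntl, with r of 0.52 for Spon2, 0.55 for Adm and 0.54 for Rasl11a. The others were Klhl13 (0.54), the sheddase Adam17 (0.52) and Lonrf3 (0.49), which is on the list of output genes. The lowest with Arntl were Clvs2 (-0.44), Defa35 (-0.40) and Lrrc15 (-0.39).

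Per1 was only loosely tied to the rest. Its r was 0.27 with Dbp (rho 0.21, adjusted p 0.003, permutation test), 0.38 with Per3, 0.45 with Tef, -0.29 with Arntl and -0.05 with Npas2, and in the 6 month groups its r with Dbp was 0.13 (adjusted p 0.541). Of the other clock genes Tef came closest to Per1, ranking 95 from the highest r. The genes most like Per1 were Tsc22d3 (0.76), which encodes the glucocorticoid-induced leucine zipper, Foxo3 (0.75), Map3k6 (0.72), Klf9 (0.72), Fam107a (0.71) and Mcf2l (0.69). Id2 (-0.52), the monocyte chemokine receptor gene Ccr2 (-0.49) and the leukocyte gene Ptprc (-0.48) were the least like it. Tsc22d3, Klf9 and Cdkn1a stand in both the list of clock output genes and that of glucocorticoid responsive genes. The mean of 14 glucocorticoid responsive genes had r of 0.74 with Per1 (rho 0.70, adjusted p 0.00012, permutation test over 18 relations of 9 genes with 2 lists). It remained 0.72 without the 2 farthest mice and was 0.74 and 0.66 in arrays without and with the word "replacement". This relation was added after the data had been seen. The list holds Tsc22d3 and Klf9, named above among the genes most like Per1, so its adjusted p is not independent of that ranking. The same list had 0.39 with Tef, 0.28 with Nr1d1 and 0.23 with Ciart, which also passed, and 0.15 with Dbp (adjusted p 0.138) and -0.03 with Arntl (adjusted p 0.833). Members such as Zbtb16 (0.64), Errfi1 (0.60), Cdkn1a (0.59) and Fkbp5 (0.57) followed Per1, whereas Sgk1 (-0.20) and Mt1 (-0.09) had negative values.

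Ciart, the E-box driven repressor with 3 CACGTG motifs in the stretch printed above, was the other gene apart. Its r was 0.11 with Dbp (adjusted p 0.258), -0.05 with Arntl (0.567) and -0.07 with Npas2 (0.449) by the permutation test, while it was 0.37 with Per3, 0.32 with Per1 and 0.26 with Tef, which passed. Its sign with Dbp was negative in 5 of 17 groups and positive in 11. The genes most like Ciart were the long noncoding RNA Fendrr (0.74), the GABA receptor gene Gabbr1 (0.69), Kank3 (0.68), the histone methyltransferase gene Kmt2a (0.67), Syne1 (0.66) and Spaca6 (0.65), and the least like were Glrx (-0.59), the leukocyte gene Cd53 (-0.47) and Nlrp4e (-0.45). Ciart had r of 0.36 with the mean of 7 endothelial markers (rho 0.29, adjusted p 0.00012, permutation test), and 0.44 in arrays both without and with the word "replacement". This was the highest of the 9 clock genes, of which Nr1d1 (0.31), Tef (0.29), Dbp (0.22) and Per1 (0.21) also passed. The lists and relations for Per1 and Ciart were added after the data had been seen.

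Across the 18 groups, 4 of the 9 genes differed by limma's F test with Benjamini-Hochberg adjustment, where 23.7% of all genes did. They were Ciart (F 4.20, adjusted p 1.95e-05), Nr1d2 (2.97, 0.00218), Arntl (2.62, 0.00795) and Npas2 (2.43, 0.0152). Dbp missed the threshold (2.02, 0.0585), although its group means had the widest range of the 9. They ran from 6.06 in DM at 1 month to 7.27 at 10 µg and 12 months. Over the 18 group means, given as a description with no test, Dbp had r of 0.95 with Nr1d2, 0.86 with Per3, -0.77 with Npas2 and -0.64 with Arntl, and -0.05 with Ciart. Not every pair repeated its r between mice. Arntl kept -0.71 with Nr1d2 over the group means, but had -0.03 with Nr1d1 and -0.02 with Tef, against -0.53 and -0.38 between mice. With Per1 it had 0.37 and with Ciart 0.63, against -0.29 and -0.05 between mice.

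Most calls among these genes came from months compared over the 6 treatments. Those comparisons hold more mice than comparisons of single groups, so their counts of calls are not of like power. Dbp at 1 month averaged 6.06 ± 0.63 (SD, n = 8) in DM, 6.32 ± 0.79 at 1 µg, 6.54 ± 0.49 at 10 µg, 6.32 ± 0.83 at 40 µg, 6.58 ± 0.78 at 80 µg and 6.30 ± 0.88 with crocidolite (n = 5). The 6 month groups averaged, in that order, 6.73 ± 0.82, 6.52 ± 0.58, 6.34 ± 0.76, 6.60 ± 0.91, 6.42 ± 0.53 and 6.79 ± 0.58. At 12 months it gave 6.90 ± 0.42, 7.07 ± 0.27 (n = 6), 7.27 ± 0.41, 6.96 ± 0.67, 6.95 ± 0.61 and 7.16 ± 0.68 (n = 7). Every group at 12 months had a higher mean than every group at 1 and 6 months, and the order of the treatments differed between the months.

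Averaged over the 6 treatments, a comparison added after the data had been seen, 7 of the 9 genes differed between 12 months and 1 month (adjusted p under 0.05, limma), where 24.5% of all genes did, 14.7% higher and 9.79% lower. The 5 genes that rose were Dbp by 0.70 ± 0.14 (SE, log2 scale, adjusted p 3.33e-05), Nr1d2 by 0.44 ± 0.08 (1.76e-06), Per3 by 0.37 ± 0.08 (0.000252), Nr1d1 by 0.27 ± 0.09 (0.0242) and Tef by 0.25 ± 0.07 (0.00497). The activators were lower, Npas2 with a difference of -0.41 ± 0.09 (7.59e-05) and Arntl with -0.20 ± 0.07 (0.015). Per1 (0.11 ± 0.11, adjusted p 0.52) and Ciart (0.09 ± 0.07, adjusted p 0.343) did not pass. Dbp, Per3, Nr1d2 and Tef were higher at 12 months in 6 of 6 treatments and Nr1d1 in 5 of 6, and Arntl and Npas2 were lower in 6 of 6. No call was lost in 28 fits that each left out 1 DM or crocidolite mouse. In arrays without the word "replacement", Nr1d1 (0.10, adjusted p 0.635), Arntl (-0.12, 0.365) and Tef (0.23, 0.0864) did not pass, and without the DM groups Nr1d1 (0.24, 0.0869) and Arntl (-0.17, 0.085) did not. Tef came to 0.11 (adjusted p 0.14) with the mean of its 2 features and to 0.17 (0.0658) without the 10 arrays of low correlation. Nr1d1 also missed the threshold with array weights (0.062), without those 10 arrays (0.118), without 10 µg (0.0566) and without crocidolite (0.129), and Arntl without 40 µg (0.0685). Dbp, Per3, Nr1d2 and Npas2 kept their calls under every alternative run.

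**Figure D3:**
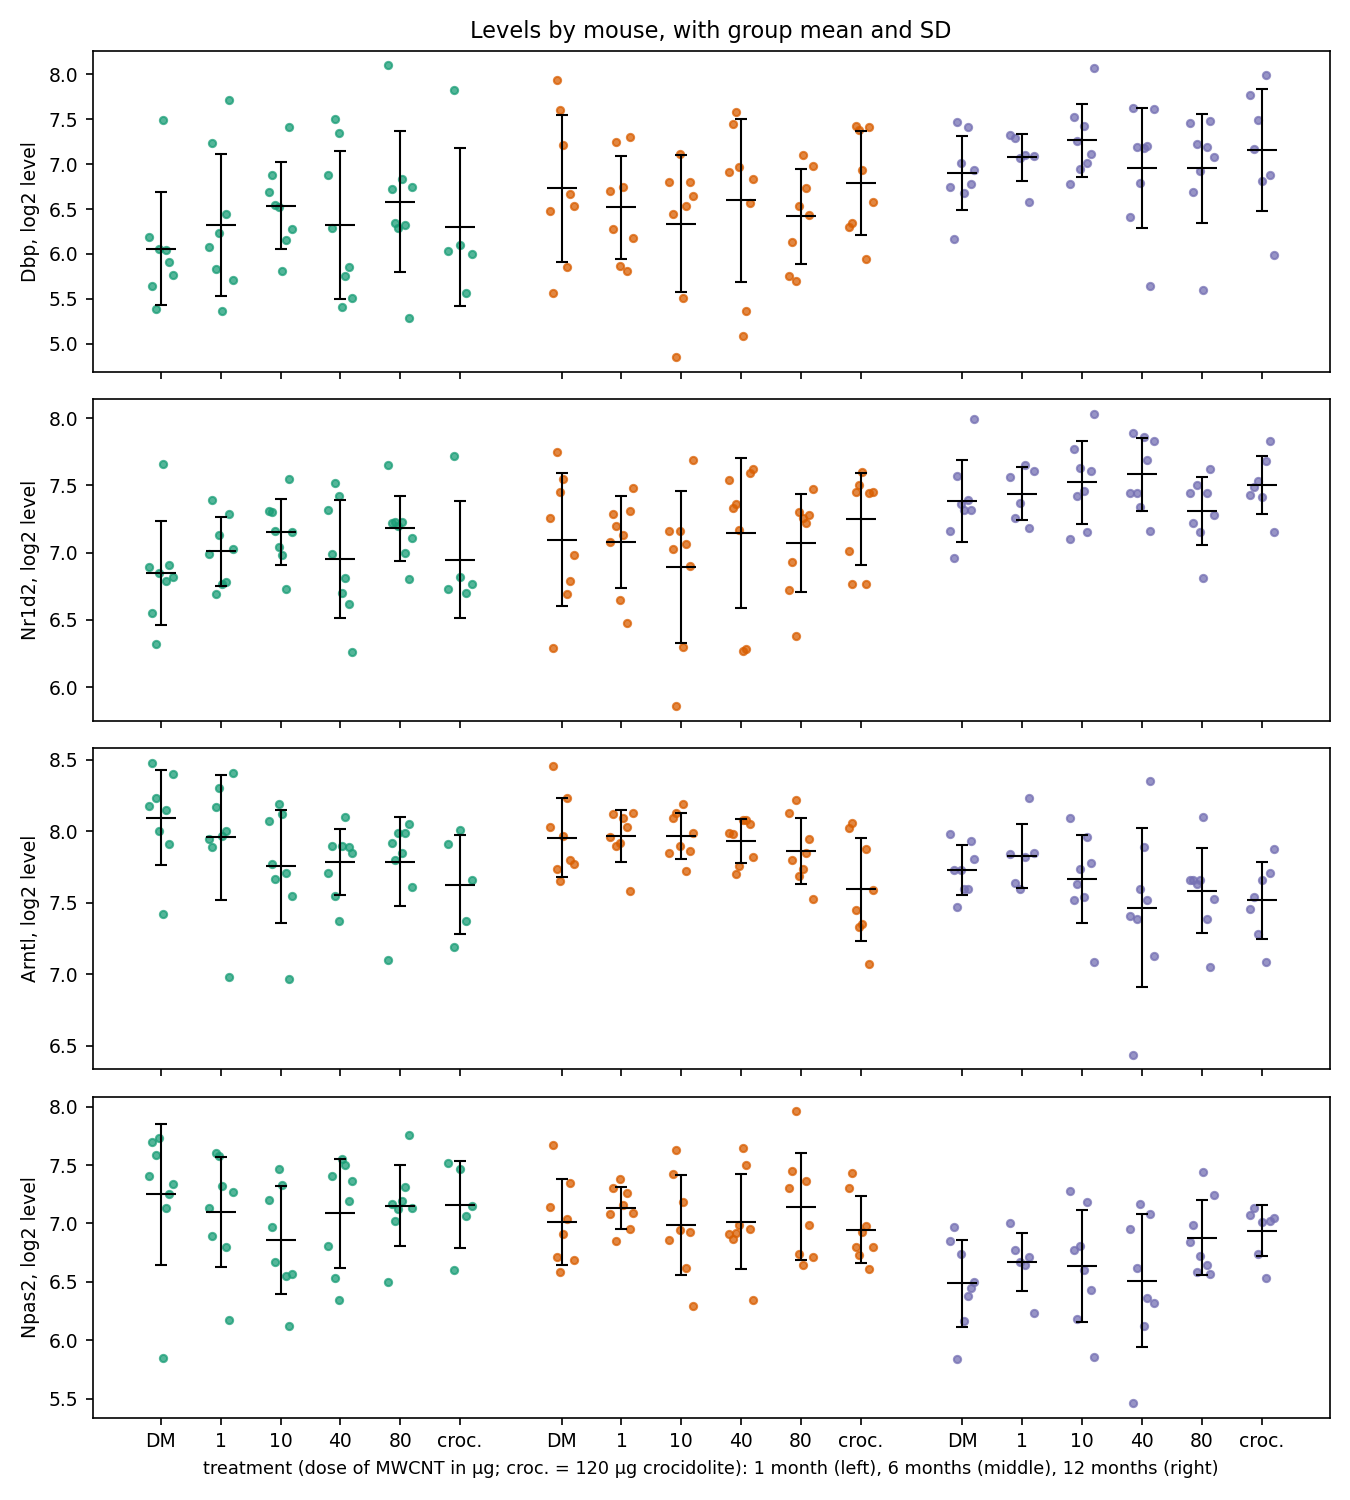
Log2 levels of Dbp, Nr1d2, Arntl and Npas2 in each mouse (points), with the group mean (horizontal mark) and SD (bars), for 6 treatments at 1 month (left), 6 months (middle) and 12 months (right). At 12 months Dbp and Nr1d2 lie higher than at 1 month and Npas2 lower, while mice of a group spread over more than 1 log2 unit of Dbp in many groups.

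Both intervals held differences. From 6 to 12 months, averaged over the treatments, 5 of the 9 genes differed, against 21.4% of all genes by limma. Dbp rose by 0.49 ± 0.14 (adjusted p 0.00508) and Nr1d2 by 0.37 ± 0.07 (0.000104), and Npas2 (-0.35 ± 0.08, 0.00095), Arntl (-0.25 ± 0.06, 0.00242) and Ciart (-0.27 ± 0.07, 0.0014) were lower. In arrays without the word "replacement", Dbp (0.40, 0.0838) and Ciart (-0.18, 0.073) did not pass. From 1 to 6 months, 2 of the 9 passed, against 12.5% of all genes. Ciart rose by 0.37 ± 0.07 (adjusted p 1.76e-05) and Per3 by 0.26 ± 0.08 (0.0164), each in 6 of 6 treatments. Averaged over the treatments, Ciart was thus higher at 6 months than at 1 or 12 months. Without the DM groups Per3 came to 0.22 ± 0.09 (adjusted p 0.111), and without the crocidolite groups to 0.22 ± 0.09 (0.108).

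In the DM lungs alone, the comparison of months was thinner. Npas2 in the 8 DM mice at 1 month ranged from 5.85 to 7.73 with a median of 7.37, and at 12 months from 5.84 to 6.97 with a median of 6.48. All but 1 of the mice at 1 month, mouse 5 described above, were above every mouse at 12 months. The difference was -0.76 ± 0.20 (adjusted p 0.0317), and Npas2 was the only clock gene of the 9 called, where 1.12% of all genes were. It passed in 8 of 16 fits that each left out 1 mouse. It did not pass without DM mouse 1, 2, 3 or 4 of the 1 month group or mouse 3, 5, 6 or 7 of the 12 month group (adjusted p 0.0541 to 0.102), and without mouse 5 of the 1 month group it was -0.96 (0.00327). Fitted on the DM groups of 1 and 12 months alone it had an adjusted p of 0.162. Dbp differed by 0.84 ± 0.33 (adjusted p 0.244), Nr1d2 by 0.54 ± 0.18 (0.14) and Arntl by -0.36 ± 0.15 (0.313). Between 6 and 1 months and between 12 and 6 months none of the 9 passed in DM lungs by limma, against 0.135% and 0.239% of all genes. Unadjusted, 3 and 2 of 9 were under 0.05, against 9.31% and 12.5% of all genes.

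Age, time since aspiration and the hour of collection at each of the 3 time points cannot be told apart in this design. Markers of other cells also differed with month. Over the 6 treatments, limma called all 8 macrophage markers lower at 12 months than at 1 month (median -0.48). It called 6 of 7 neutrophil markers higher (median 0.43) and 4 of 8 B and T cell markers higher (median 0.22). Of 9 epithelial markers 5 were called lower and 1 higher (median -0.07), and 3 of 7 endothelial markers were called lower (median -0.06). Of all genes, 9.79% were called lower and 14.7% higher. In DM lungs alone 1 epithelial marker was called lower and no other marker of these lists was called. The part of these cells in the clock genes' differences was not tested. In whole lung, a change in the share of a cell type and a change in RNA per cell cannot be told apart.

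Of 17 further clock genes measured, 4 were called higher and 2 lower between 12 months and 1 month over the 6 treatments. Of all genes, 14.7% were called higher and 9.79% lower, so the counts of this and the next lists are read against 24.5% in all. Whether a list exceeds that share was not tested. Rorb, a receptor that acts on ROR elements, rose by 0.40 ± 0.07 (adjusted p 3.53e-06), Bhlhe41 by 0.29 ± 0.07 (0.000474) and Cry2 by 0.20 ± 0.06 (0.00503). Hlf differed by 0.16 ± 0.06 (0.0368), Nfil3 by -0.17 ± 0.07 (0.0461) and Bhlhe40 by -0.19 ± 0.05 (0.00284). Of 19 output genes, 7 were called higher and 0 lower by limma. Usp2, a ubiquitin protease under clock control, was at 0.41 ± 0.05 (1.9e-11). The heat shock genes Hsph1 and Hsp90aa1 were at 0.41 ± 0.08 (5.61e-05) and 0.28 ± 0.06 (5.14e-05). Of 14 glucocorticoid responsive genes 4 were called higher and 1 lower. Of 15 immediate early genes 2 were called higher and 2 lower, among them Egr2 with a difference of -0.54 ± 0.07 (3.27e-10). In DM lungs alone, 1 of the 17 clock genes passed, Bhlhe41, with a difference of 0.56 ± 0.16 (adjusted p 0.0489).

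Ciart was lower in crocidolite lungs at 1 month. The 5 crocidolite mice had Ciart levels of 5.54, 5.17, 5.47, 5.03 and 4.58. The 8 DM mice ranged from 5.36 to 6.10 with a median of 5.74, so 3 of the 5 crocidolite mice were below all of them. The difference was -0.58 ± 0.18 (adjusted p 0.0395, limma), and Ciart was the only one of the 9 genes called, where 5.76% of all genes were. The call was lost in 8 of 13 fits that each left out 1 mouse, namely DM mouse 1, 4, 5, 6 or 8 or crocidolite mouse 2, 4 or 5, with adjusted p from 0.0519 to 0.293. It was also lost when those 2 groups were fitted alone (adjusted p 0.116). Without crocidolite mouse 5 the difference was -0.43 (0.293). Crocidolite mice 4 and 5 are also among the 10 arrays least correlated with the rest.

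At 6 months the highest of the 8 crocidolite mice had a Ciart level of 5.91 and the lowest DM mouse 5.92. The groups thus did not overlap, and the share of all genes with such a separation was not counted. The DM group at 6 months had the highest Ciart mean of the 18 groups (6.14). At 1, 10, 40 and 80 µg MWCNT, 5, 6, 4 and 5 of 8 mice were also below all DM mice. The crocidolite median was 5.73 and the DM median 6.06. The difference of -0.51 ± 0.16 nevertheless missed the threshold (adjusted p 0.0519), and none of the 9 genes was called where 3.68% of all genes were, by limma. Unadjusted, 2 of 9 and 15.1% of all genes were under 0.05. At 12 months the 7 crocidolite mice ranged from 4.89 to 5.56 (median 5.17) and the DM mice from 4.83 to 6.15 (median 5.66), with 1 DM mouse below all crocidolite mice. The difference was -0.48 ± 0.17 (adjusted p 0.0623), again with none called by limma against 6.47% of all genes. Unadjusted, 2 of 9 were under 0.05, near the 17.4% of all genes.

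**Figure D4:**
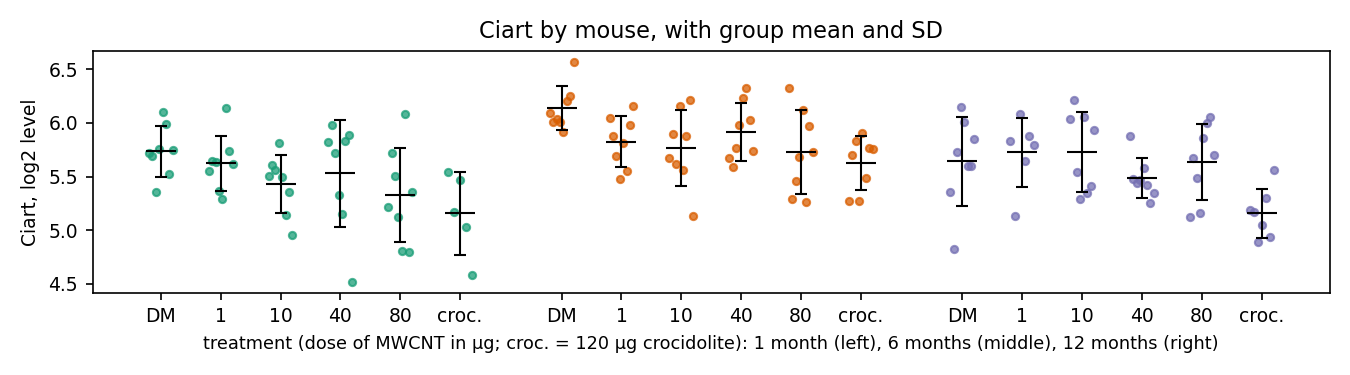
Ciart log2 level in each mouse (points), with the group mean (horizontal mark) and SD (bars), for 6 treatments at 1 month (left), 6 months (middle) and 12 months (right). At each month the crocidolite group lies lowest, with means of 5.16, 5.63 and 5.16 against 5.74, 6.14 and 5.64 in DM.

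The mean of the 3 months, a comparison added after the data had been seen, gave crocidolite minus DM differences of -0.53 ± 0.10 for Ciart (adjusted p 1.33e-05) and -0.35 ± 0.09 for Arntl (0.00349). These 2 of the 9 genes passed, where 16.2% of all genes did. Each kept its call in 44 fits that left out 1 mouse, with adjusted p up to 0.000138 for Ciart and 0.0123 for Arntl. Arntl in DM and crocidolite lungs averaged 8.10 ± 0.33 and 7.63 ± 0.35 after 1 month. The 6 month averages were 7.96 ± 0.28 and 7.59 ± 0.36, and those of 12 months 7.73 ± 0.17 and 7.52 ± 0.27. Of the genes that ran opposite to Arntl between mice, Dbp (0.19 ± 0.20, adjusted p 0.628), Nr1d1 (-0.12 ± 0.13, 0.644) and Nr1d2 (0.12 ± 0.11, 0.53) did not pass. Npas2, which ran with Arntl between mice, did not pass either (0.10 ± 0.12, 0.693). The 95% interval was -0.21 to 0.58 for Dbp and -0.15 to 0.34 for Npas2.

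Macrophage markers were called higher with crocidolite beside these differences, 7 of 8 at 1 month (median 2.13), 5 of 8 at 6 months (1.24) and 8 of 8 at 12 months (1.75). Their list mean was 6.77 to 7.13 in DM and 8.91 to 9.77 with crocidolite at 1 month. Endothelial markers were called lower, 4 of 7 at 1 month (median -0.34), 6 of 7 at 6 months (-0.43) and 5 of 7 at 12 months (-0.35). Their list mean was 9.64 to 10.01 in DM and 8.92 to 9.90 with crocidolite at 1 month. Of 8 B and T cell markers 3 were called lower at 1 month (median -0.37). The share of all genes called was 5.76%, 3.68% and 6.47% at 1, 6 and 12 months. The part of these cells in the lower Ciart and Arntl, and in the differences of other clock genes given next, was not tested.

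Among other clock genes in crocidolite lungs, Bhlhe40 and Bhlhe41 rose. At 1 month Bhlhe41 rose by 1.23 ± 0.18 (adjusted p 9.25e-08) and Bhlhe40 by 0.96 ± 0.14 (9.06e-08), both repressors of E-box genes that are also expressed in immune cells, and Csnk1e, a kinase of the Per proteins, was lower (-0.40 ± 0.11, 0.00934). These 3 were the only ones of 17 that passed, where 5.76% of all genes did. Clock (-0.24 ± 0.09, adjusted p 0.112), Cry1 (-0.41 ± 0.18, 0.199), Cry2 (-0.31 ± 0.16, 0.294), Hlf (-0.20 ± 0.16, 0.595) and Nfil3 (0.26 ± 0.18, 0.496) did not. Of 19 output genes 1 was called, the monooxygenase gene Fmo2 (-0.66 ± 0.10, 8.67e-07). Of 14 glucocorticoid responsive genes 3 were called higher, the metallothioneins Mt2 (1.13 ± 0.23, 0.000268) and Mt1 (0.56 ± 0.16, 0.0195) and Sgk1 (0.37 ± 0.09, 0.00222). Of 15 immediate early genes 3 were called higher, Atf3 (1.34 ± 0.18, 1.14e-08), Egr2 (0.63 ± 0.19, 0.0297) and Junb (0.49 ± 0.15, 0.0346). In the mean of 3 months 2 of the 17 were called higher and 4 lower, where 16.2% of all genes were called. Bhlhe41 (0.85 ± 0.10, adjusted p 1.72e-12) and Bhlhe40 (0.83 ± 0.08, 1.96e-17) were higher. Csnk1e (-0.26 ± 0.06, 0.000284), Rora (-0.21 ± 0.06, 0.00395), an activator of Arntl, Clock (-0.15 ± 0.05, 0.0201) and Btrc (-0.15 ± 0.04, 0.00923) were lower. All 6 are named so that the count is complete, some of them after their values were seen.

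**Figure D5:**
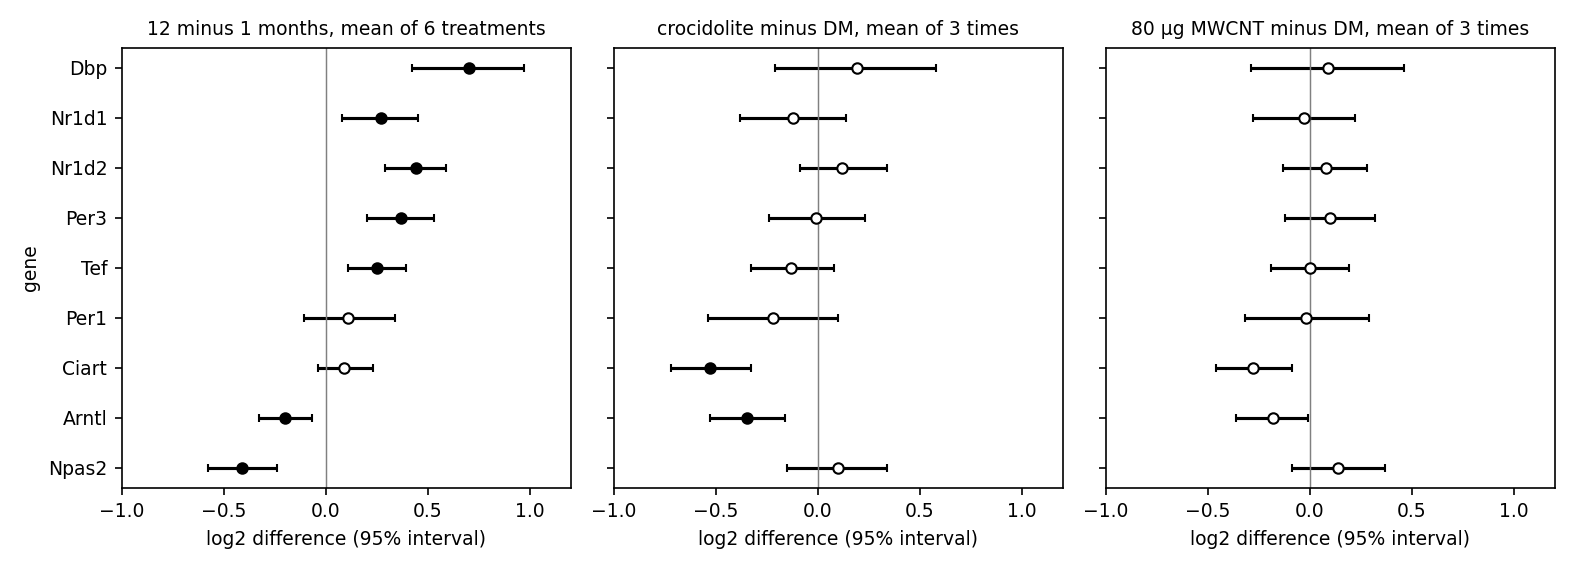
Log2 differences of the 9 clock genes with 95% intervals for 12 minus 1 months over the 6 treatments (left), crocidolite minus DM over 3 months (middle) and 80 µg MWCNT minus DM over 3 months (right), where filled points passed limma's test. On the left 7 genes are filled, from 0.70 for Dbp to -0.41 for Npas2, in the middle Ciart (-0.53) and Arntl (-0.35), and on the right none.

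None of the 9 genes passed the test at any dose of MWCNT. In each of the 12 comparisons of an MWCNT dose with DM, 0 of the 9 genes were called by limma. The share of all genes called at 1, 10, 40 and 80 µg was 0%, 0.0225%, 0.573% and 1.79% after 1 month. After 6 months it was 0%, 0.00451%, 0.212% and 0.933%, and after 12 months 0%, 0%, 0.0361% and 0.176%. Unadjusted, 6 of the 108 differences (5.56%) were under 0.05, no more than the mean share of all genes in these comparisons (6.93%). All 6 were lower levels of Arntl or Ciart, the genes called with crocidolite over 3 months. Comparisons of the same month, crocidolite included, share their DM mice and are not independent. Of the 18 groups, DM at 1 month had the highest Arntl mean (8.10) and DM at 6 months the highest Ciart mean (6.14). Arntl differed by -0.34, -0.31 and -0.31 at 10, 40 and 80 µg after 1 month. The others were Ciart at 80 µg after 1 month and at 10 µg (-0.37) and 80 µg after 6 months. Ciart differed at 80 µg by -0.41 ± 0.16 at 1 month (adjusted p 0.265) and -0.41 ± 0.16 at 6 months (0.343), while at 12 months the difference was -0.01 ± 0.16 (0.989) and turned to 0.01 after quantile normalization. Over 3 months, an added comparison, Ciart differed by -0.28 ± 0.09 at 80 µg (adjusted p 0.0618) and Arntl by -0.18 ± 0.09 (0.299), with 0 of 9 called by limma against 5.63% of all genes, and 2 of 9 under 0.05 unadjusted against 15.1%. The 95% interval at 80 µg was -0.29 to 0.46 for Dbp and -0.28 to 0.22 for Nr1d1. Of the 17 other clock genes, those called against DM were Bhlhe40 and Bhlhe41, both higher and both at 80 µg; they are named here after their values were seen. Bhlhe41 rose by 0.93 ± 0.16 (adjusted p 1.21e-05) and Bhlhe40 by 0.73 ± 0.12 (9.83e-06) at 1 month, and Bhlhe40 by 0.47 ± 0.12 (0.0318) at 6 months. Over 3 months they rose by 0.56 ± 0.09 (2.11e-06) and 0.49 ± 0.07 (6.61e-08). Macrophage markers were also called higher at 80 µg by limma, 7 of 8 at 1 month (median 1.63) and 5 of 8 at 6 months (1.27). Over 3 months 8 of 8 were called higher (1.3). The part of these cells in the higher Bhlhe40 and Bhlhe41 was not tested.

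Slopes on log2 of the dose plus 1 were past the test for 0 of 9 genes at 1, 6 and 12 months by limma, where 3.03%, 1.34% and 1.2% of all genes were. Unadjusted, 2, 0 and 1 of 9 were under 0.05, against 12%, 10.4% and 17.8% of all genes. Of the 17 other clock genes, Bhlhe41 (0.14 ± 0.02, adjusted p 2.73e-07) and Bhlhe40 (0.10 ± 0.02, 2.18e-06) had higher slopes at 1 month and Bhlhe40 (0.06 ± 0.02, 0.0481) at 6 months. Macrophage markers had called rising slopes too, 8 of 8 at 1 month (median 0.24) and 6 of 8 at 6 months (0.18). Their part in the slopes of Bhlhe40 and Bhlhe41 was not tested. Among the 9, the lowest adjusted p was that of Ciart at 1 month, with a slope of -0.05 ± 0.02 per unit (0.224). Between 80 µg MWCNT and crocidolite 0 of 9 genes passed at 1, 6 and 12 months by limma, against 0.0902%, 0.0271% and 0.978% of all genes. Unadjusted, 0, 0 and 1 of 9 were under 0.05, against 10.2%, 4.64% and 12.9%. At 12 months Ciart was 5.63 ± 0.35 at 80 µg and 5.16 ± 0.23 with crocidolite, a difference of 0.47 ± 0.17 with an adjusted p of 0.173 by limma. Whether an effect changed from 1 to 12 months was tested as an interaction, and 0 of 9 genes passed for 80 µg or for crocidolite by limma (0 and 0 of 9 under 0.05 unadjusted, against 7.74% and 6.52% of all genes), against 0.00902% and 0.0541% of all genes.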

How the data were processed

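Gene expression in mouse lung was measured on 139 Affymetrix whole-transcript arrays from 400 ng of total RNA. The deposited values are log2 expression levels, and the submitters' processing notes name RMA, oligo and limma. No source used here names the build behind the array annotation. Of 41345 features, 23521 carry a single symbol in the platform annotation, 1814 several and 16010 none. RefSeq (GRCm38.p6) was used for symbols and promoters, and 23328 single-symbol features matched. The feature of highest mean stood for a gene, and the 2 arrays of 1 mouse were averaged.

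The values were fitted with limma 3.58.1 in R 4.3.3, with 1 mean per group, 120 residual degrees of freedom and Benjamini-Hochberg adjustment over 22180 genes at 0.05. Replicates are mice, by the animal numbers in the labels. Errors beside differences are the SE, and those beside means the SD. Array number, not depth, limits the precision. Correlations used 100000 permutations within groups (numpy 2.4.6) and were adjusted over 36 pairs, since Per2 was not used. Named genes were all clock genes, the 3 largest called in each list and comparison, Clock, Cry1, Cry2, Hlf and Nfil3, and the genes most and least like Dbp and Arntl, with Per1 and Ciart added later. Bhlhe40 between months, Rora, and list members given by their correlation fall outside that rule and were named after their values were seen. The genes and lists were chosen with earlier results of these data known. Each test across genes was tested on simulated data.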

Additional observations from a re-analysis of the deposited data

Results flagged for a closer look

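Of 162 sets of 1 clock gene in 1 group, 13 held a mouse that stood far from its group mates, by the ratio of its gap to the range of the group, and chance flags about 1 in 20. Mouse 5 of the DM, 1 month group stood out for 3 genes, high for Dbp (7.49, next 6.19) and Nr1d2 (7.66, next 6.91) and low for Npas2 (5.85, next 7.13). Mouse 2 of the crocidolite, 1 month group was high for Dbp (7.83, next 6.10) and Nr1d2 (7.72, next 6.82). Mouse 7 of the crocidolite, 12 month group was low for Per1 (5.48, next 6.85) and Tef (5.86, next 6.63). Low Dbp was also found in mouse 5 of the 1 µg, 12 month group (6.58, next 7.07) and mouse 5 of the 80 µg, 12 month group (5.60, next 6.69). Nr1d1 was low in mouse 7 of the 40 µg, 12 month group (7.28, next 8.25). Arntl was low in mouse 7 of the 1 µg, 1 month group (6.98, next 7.89), mouse 7 of the 1 µg, 6 month group (7.58, next 7.90) and mouse 1 of the 80 µg, 1 month group (7.10, next 7.61). The cause was not tested.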

How the results depend on the processing

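No paired analysis was possible because the replicate numbers only name mice in order of deposition and no label pairs mice across groups. No alternative turned the direction of a called difference. Median centring or quantile normalization turned or brought to 0 the sign of 28 of 279 differences, none of them called and all within 0.07 of 0. The count of clock genes called with crocidolite at 1 month was 1, and 0 when only the groups compared were fitted, in arrays without or with the word "replacement", with array weights, or without the 10 arrays of low correlation; leaving out 1 mouse gave 0 to 2. For DM at 12 against 1 months it was 1, and 0 with only the groups compared and in arrays without or with the word; leaving out 1 mouse gave 0 to 2. With crocidolite at 6 months it was 0, and 1 with only the groups compared, array weights, the low arrays left out, trended and robust moderation, or genes above the median level. With crocidolite at 12 months and with 80 µg over 3 months it was 0, and 1 after median centring, quantile normalization, array weights, the low arrays left out, or genes above the median level. It was also 1 in place of 0 for DM at 12 against 6 months with array weights and for 80 µg against crocidolite at 12 months in arrays without the word. Over the 6 treatments, 12 against 6 months gave 3 in place of 5 in arrays without the word, and 6 against 1 months gave 1 in place of 2 without the DM or the crocidolite groups; leaving out 1 mouse gave 2 to 3. Of 36 correlated pairs, 19 in place of 30 passed in arrays with the word, with fewer mice (33). Counts over the means of treatments or months, and the alternatives that leave out a treatment, were added after seeing the data. The counts of this section stand without the share of all genes called under the same alternative, so a change in them is not read as a result. The cause of the other changes was not tested.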
